A study of Homo sapiens with 19 samples.

Results

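The 35 genes described here encode proteins of fatty acid oxidation, ketone body metabolism and their regulation through PPARA. They were taken from a given list by gene identifier, and all 35 were measured among 25579 genes on each array. By role they fall into 4 genes of the carnitine shuttle, 4 acyl-CoA synthetases, 12 genes of mitochondrial beta-oxidation, 3 of electron transfer, 6 of peroxisomal oxidation, 1 ketone body enzyme and 5 regulators or secreted factors.

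Long-chain fatty acids are activated to acyl-CoA by the synthetases, carried into mitochondria as carnitine esters and shortened there by repeated cycles of oxidation, hydration, oxidation and thiolysis. Very long and branched chains are first shortened in peroxisomes, and the products leave as carnitine esters. In the liver during fasting, acetyl-CoA from this pathway feeds ketone body synthesis, and the nuclear receptor PPARA switches on many genes of the pathway together with the co-activator encoded by PPARGC1A.

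The cells were HepG2, an established human liver cancer line, transfected with small interfering RNAs (siRNAs) and measured 24 h later on 19 Affymetrix arrays. The targets were YAP (gene YAP1) and TAZ (gene WWTR1), related co-activators that the Hippo pathway holds in check. The 7 groups were a nonsense siRNA control (n = 3), siYAP1 (n = 3), siYAP2 (n = 3), siTAZ2 (n = 3), siTAZ3 (n = 2), the pair siTAZ2_siYAP1 (n = 3) and the pair siTAZ3_siYAP2 (n = 2). Each siRNA was used at 20 nM and each pair at 40 nM in total. The labels leave the dose of the control open to either reading, so a group and the control may also differ in dose. All groups thus share the cell line, transfection and harvest time, and all come from 1 line. The control, siYAP1 and siYAP2 arrays were deposited before the 4 groups that received a TAZ siRNA, so for any comparison of those 4 with control or with YAP siRNAs alone, deposit and siRNA cannot be told apart. Nothing in the labels says that the arrays of a group came from separate cultures, so the p-values measure the spread between these arrays, which may be technical.

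Values are log2 RMA values, on which a difference of 1 is a doubling of signal. The array median was 4.83. Of the 35 genes, 4 had a mean below it (ACADL, BDH1, FGF21 and PDK4) and are not shown to be above background. As a check of the HepG2 label, 8 hepatocyte genes were measured with means between 10.1 and 13.5, while 9 of 10 markers of blood, endothelial and mesenchymal cells lay below the array median and COL1A1 had a mean of 6.64. YAP1 read 9.84 in control, 7.11 with siYAP1 and 7.13 with siYAP2, and WWTR1 read 9.54 in control, 6.97 with siTAZ2 and 6.47 with siTAZ3. In siTAZ2_siYAP1 YAP1 read 7.53 and WWTR1 7.204, and in siTAZ3_siYAP2 7.74 and 6.29. With the TAZ siRNAs alone YAP1 read 9.596 and 9.43, lower than control in the limma fit (log2 difference -0.32 ± 0.08 (SE), adjusted p = 0.0367). WWTR1 read 9.16 with siYAP1 and 9.22 with siYAP2 (-0.36 ± 0.09 (SE) for their mean, adjusted p = 0.0671). The array labelled siTAZ2 replicate 3 stood apart: the median of its correlations with the rest was 0.9866, where each remaining array had at least 0.9927, and its values for the 35 genes deviated from their group means with an SD of 0.365. Because all comparisons share 1 estimate of the spread, this array bears on every test. Counts of the 35 genes by comparison are given with and without it, and counts over several comparisons with all arrays only. A gene passed when its Benjamini-Hochberg adjusted p, over all 25579 genes of a limma fit, was under 0.05.

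RefSeq promoter windows of the assembly GRCh38.p14, from 250 bases before to 50 after a start site, were matched for 30 of the 35 genes and number 43. The windows of CROT, which passed in 11 of the 16 comparisons made, of ACSL4, which had the widest differences among the synthetases, and the first of ACSL5, which holds a match to both searched motifs, are printed so that they can be set against the values that follow. Capitals mark GGAATG, the core recognised by TEAD factors (the DNA-binding partners of YAP and TAZ), and AGGTCA, a half-site of PPARA and other nuclear receptors; both strands were searched.
CROT (chr7:87345414-87345713, plus strand): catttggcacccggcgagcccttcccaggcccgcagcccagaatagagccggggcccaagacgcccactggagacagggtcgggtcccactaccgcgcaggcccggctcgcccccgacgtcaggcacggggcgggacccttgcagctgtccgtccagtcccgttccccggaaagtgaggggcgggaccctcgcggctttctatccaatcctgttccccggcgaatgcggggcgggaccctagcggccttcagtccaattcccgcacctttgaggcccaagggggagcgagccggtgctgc
ACSL4 (chrX:109733208-109733507, minus strand): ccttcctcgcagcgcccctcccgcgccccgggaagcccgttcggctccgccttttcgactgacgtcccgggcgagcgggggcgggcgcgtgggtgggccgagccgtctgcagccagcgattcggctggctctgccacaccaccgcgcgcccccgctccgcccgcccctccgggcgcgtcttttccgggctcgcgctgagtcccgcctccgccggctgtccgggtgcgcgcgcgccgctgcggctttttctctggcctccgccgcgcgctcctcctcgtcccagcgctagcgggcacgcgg
ACSL5 (chr10:112375018-112375317, plus strand): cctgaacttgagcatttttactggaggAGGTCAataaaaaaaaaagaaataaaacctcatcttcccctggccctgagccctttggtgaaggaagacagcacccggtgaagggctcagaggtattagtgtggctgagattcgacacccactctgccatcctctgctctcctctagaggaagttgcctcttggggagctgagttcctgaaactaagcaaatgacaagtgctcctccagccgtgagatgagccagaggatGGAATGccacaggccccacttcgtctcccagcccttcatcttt
Neither motif occurs in the CROT and ACSL4 windows. In the ACSL5 window AGGTCA starts at position -223 and GGAATG at position 8 relative to the start site. GGAATG occurred in 4 of the 43 windows (ACSL3, ACSL1, HSD17B4 and ACSL5), against 14% of 35116 windows of all genes, and AGGTCA in 2 (ACSL5 and CREB3L3), against 13.8%. The classical PPAR element, a direct repeat of AGGTCA with 1 base between the copies, was in no member window and in 0.0228% of all windows. A match is a run of letters and is not shown to be a bound site. The subunit genes HADHA and HADHB are divergent neighbours whose start sites lie 307 bases apart on chromosome 2, and their windows share the following 194 bases (chr2:26244689-26244882, plus strand), shown because the encoded subunits form 1 complex and are described together.
HADHA and HADHB: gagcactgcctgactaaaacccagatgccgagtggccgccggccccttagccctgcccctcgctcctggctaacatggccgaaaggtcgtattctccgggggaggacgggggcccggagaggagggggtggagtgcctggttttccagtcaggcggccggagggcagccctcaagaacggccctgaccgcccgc

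Against control, 9 of the 35 genes passed in at least 1 comparison and 26 in none; of all genes 7.77% did so. With YAP siRNAs, taken as the mean of siYAP1 and siYAP2, CROT rose and ACSL4 fell, so that 2 of 35 genes passed; over all genes 1.73% passed. With TAZ siRNAs CROT, EHHADH and ACAA2 rose and none fell, 3 of 35 against 1.97% of all genes. With the combined pairs CROT, PPARGC1A, ACOX2, EHHADH and ACAA2 rose and none fell, 5 of 35 against 2.59% of all genes. The median log2 difference of the 35 genes was 0.046 with YAP siRNAs, 0.085 with TAZ siRNAs and 0.110 with the pairs, beside 0.002, -0.001 and 0.005 over all genes. All genes include many dim ones, while most of the 35 lay above the array median, and no set of like level was compared. In fits without the dimmest 30% of genes, 2, 2 and 4 of the listed genes passed. Of all genes kept there, 2.51%, 2.69% and 3.7% passed. These comparisons share the 3 control arrays. Leaving out siTAZ2 replicate 3 raised the counts to 4 for YAP siRNAs (4.47% of all genes), 10 for TAZ siRNAs (4.69%) and 9 for the pairs (6.17%).

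**Figure D1:**
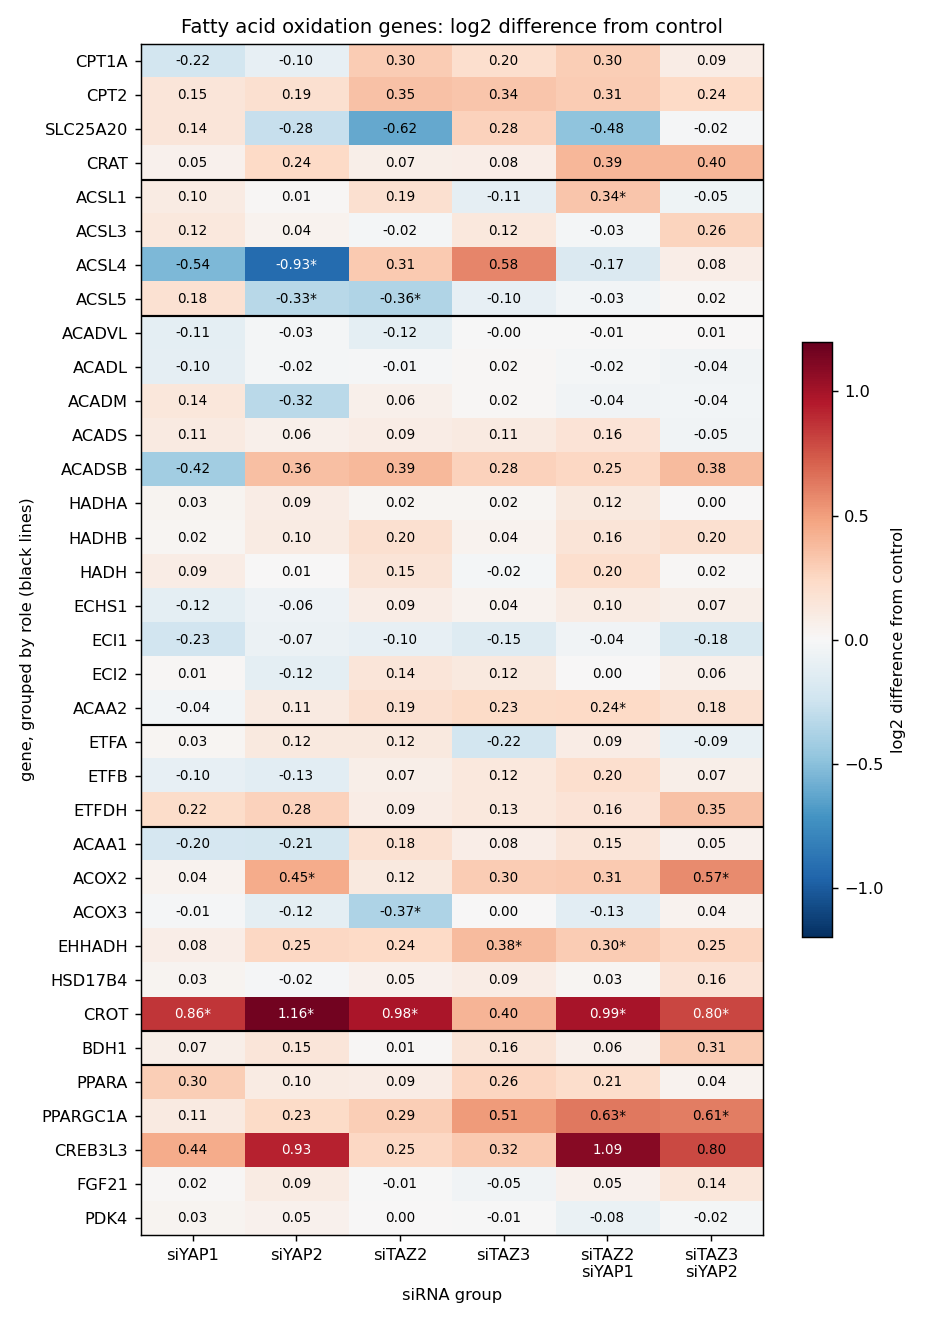
Log2 difference from the control mean for each of the 35 genes (rows, grouped by role) and each of the 6 siRNA groups (columns), with the colour giving the direction and size. CROT is higher in all 6 columns, by 0.40 to 1.16, and ACSL4 lies at -0.54 and -0.93 with the YAP siRNAs and at 0.31 and 0.58, without passing, with the TAZ siRNAs.

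CROT encodes carnitine O-octanoyltransferase, which makes carnitine esters of medium-chain acyl groups shortened in peroxisomes. The control arrays read 5.99, 6.28 and 6.17. CROT read 7.02, 6.99 and 7.01 with siYAP1 and 7.25, 7.36 and 7.30 with siYAP2. With siTAZ2 it read 7.02, 7.33 and 7.02, and with siTAZ3 6.56 and 6.54. Every array with a YAP or TAZ siRNA lay above the 3 control arrays, and the siTAZ3 arrays were the lowest of them. The pair siTAZ2_siYAP1 gave 7.01, 7.19 and 7.21, and siTAZ3_siYAP2 gave 6.93 and 6.97. The pairs lay in the range of the single siRNAs and not above it. Because each array measured RNA of a whole culture, a change in every cell and a change in a share of the cells cannot be told apart.

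Against control CROT was 2.01-fold higher with YAP siRNAs (log2 difference 1.01 ± 0.08 (SE), adjusted p = 2.42e-06), 1.61-fold higher with TAZ siRNAs (0.69 ± 0.08 (SE), adjusted p = 2.20e-04) and 1.86-fold higher with the pairs (0.90 ± 0.08 (SE), adjusted p = 1.17e-05). By single siRNA the log2 difference was 0.86 with siYAP1, 1.16 with siYAP2 and 0.98 with siTAZ2, and all 3 passed. With siTAZ3 it was 0.40 ± 0.10 (SE) and did not pass (adjusted p = 0.0659; 0.0278 without siTAZ2 replicate 3). Both pairs passed, at 0.99 and 0.80. With all arrays, CROT was the only one of the 35 genes that passed with both YAP siRNAs in the same direction. Of all genes 0.27% did so. ACSL4 also passed with siYAP1 once siTAZ2 replicate 3 was left out, and the count for both siRNAs was not made again. When only the control, siTAZ2 and siTAZ3 arrays were fitted, the call for TAZ siRNAs was lost (adjusted p = 0.0526), as were those of EHHADH and ACAA2. Of all genes 0.242% passed in that fit.

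The other peroxisomal genes had smaller differences. EHHADH, the bifunctional hydratase and dehydrogenase of the peroxisome, read 8.59, 8.50 and 8.45 in control, 8.77, 8.74 and 8.73 with siTAZ2 and 8.87 and 8.92 with siTAZ3. With siTAZ2_siYAP1 it read 8.86, 8.81 and 8.77, and with siTAZ3_siYAP2 8.71 and 8.82. All 10 arrays with a TAZ siRNA lay above the 3 control arrays. The log2 difference was 0.31 ± 0.06 (SE) with TAZ siRNAs (adjusted p = 0.021) and 0.28 ± 0.06 (SE) with the pairs (adjusted p = 0.0307). The first call was lost in 4 of 19 fits that left out 1 array (control replicate 2 or 3 or either siTAZ3 array, adjusted p up to 0.127) and the second in 6 (any control, siTAZ2_siYAP1 replicate 1 or 2 or siTAZ3_siYAP2 replicate 2, up to 0.183). With siYAP1 EHHADH read 8.74, 8.44 and 8.58 and with siYAP2 8.69, 8.74 and 8.86, and the mean difference of 0.16 did not pass (adjusted p = 0.343).

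ACOX2, the oxidase of branched chains and bile acid intermediates, read 7.995, 8.04 and 7.94 in control and 7.92, 8.04 and 8.13 with siYAP1, where the groups overlapped. With siYAP2 it read 8.54, 8.32 and 8.46, above every control array. It read 8.26, 8.16 and 7.91 with siTAZ2, 8.23 and 8.36 with siTAZ3, 8.32, 8.26 and 8.32 with siTAZ2_siYAP1 and 8.62 and 8.50 with siTAZ3_siYAP2. The siTAZ3_siYAP2 arrays had the highest mean and overlapped the siYAP2 arrays. ACOX2 rose with the pairs (log2 difference 0.44 ± 0.08 (SE), adjusted p = 0.00459) and with siYAP2 (0.45 ± 0.09 (SE), adjusted p = 0.00561), while the mean over both YAP siRNAs did not pass (0.24, adjusted p = 0.155; 0.031 without siTAZ2 replicate 3). ACOX3, a second branched-chain oxidase, read 7.77, 7.89 and 8.04 in control and 7.60, 7.51 and 7.47 with siTAZ2. All 3 siTAZ2 arrays were below control, and the difference of -0.37 ± 0.08 (SE) passed (adjusted p = 0.0225), but not without control replicate 2 or 3 or siTAZ2 replicate 2 (adjusted p up to 0.121). With siTAZ3 it read 7.93 and 7.87, among the control values. ACAA1, the peroxisomal thiolase, and HSD17B4, the D-bifunctional enzyme, did not pass against control in any group; over the 19 arrays they ranged from 8.55 to 9.19 and from 10.33 to 10.85.

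Among the 4 long-chain acyl-CoA synthetases, ACSL4, which prefers arachidonate, had the widest movement. It read 11.14, 11.26 and 11.29 in control, 10.77, 10.65 and 10.65 with siYAP1 and 10.30, 10.32 and 10.28 with siYAP2. All 6 YAP siRNA arrays lay below all 3 control arrays, and siYAP2 lay below siYAP1. With siTAZ2 it read 11.26, 11.34 and 12.02 and with siTAZ3 11.81 and 11.81. The value of 12.02 belongs to siTAZ2 replicate 3, and siTAZ2 overlapped control while siTAZ3 did not. The pairs read 10.93, 11.08 and 11.14 and 11.31 and 11.30, the first within or below the control values and the second just above them.

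ACSL4 was 1.66-fold lower with YAP siRNAs (log2 difference -0.73 ± 0.12 (SE), adjusted p = 0.00317). The fall with siYAP2 passed (-0.93, adjusted p = 6.27e-04), and siYAP1 gave -0.54 without passing (adjusted p = 0.105; 1.19e-04 without siTAZ2 replicate 3). For TAZ siRNAs the difference was 0.45 ± 0.12 (SE) (adjusted p = 0.0882), and without siTAZ2 replicate 3 it was 0.33 and passed (adjusted p = 0.00304). For the pairs it was -0.05, with a 95% interval of -0.31 to 0.21. Intervals here are unadjusted, so some exclude 0 for a gene that did not pass.

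ACSL5, found on mitochondria and endoplasmic reticulum, read 10.41, 10.43 and 10.33 in control and 10.55, 10.53 and 10.63 with siYAP1. It read 10.17, 10.02 and 9.98 with siYAP2 and 10.08, 9.99 and 10.00 with siTAZ2, and these 6 arrays were the lowest of the 19. With siTAZ3 it read 10.32 and 10.26, with siTAZ2_siYAP1 10.42, 10.40 and 10.26 and with siTAZ3_siYAP2 10.47 and 10.34. ACSL5 fell with siYAP2 (log2 difference -0.33 ± 0.07 (SE), adjusted p = 0.00656) and with siTAZ2 (-0.36 ± 0.07 (SE), adjusted p = 0.00699), and neither siYAP1 (0.18, adjusted p = 0.333) nor siTAZ3 (-0.10, adjusted p = 0.858) passed. ACSL1, the main long-chain synthetase of liver, read 9.16, 9.14 and 9.15 in control and 9.52, 9.46 and 9.49 with siTAZ2_siYAP1, where the groups did not overlap. That rise of 0.34 ± 0.06 (SE) was its only pass against control (adjusted p = 0.00325). In the other groups ACSL1 ranged from 8.96 to 9.37. ACSL3, a synthetase of lipid droplets and endoplasmic reticulum, did not pass with all arrays and ranged from 10.53 to 11.36.

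**Figure D2:**
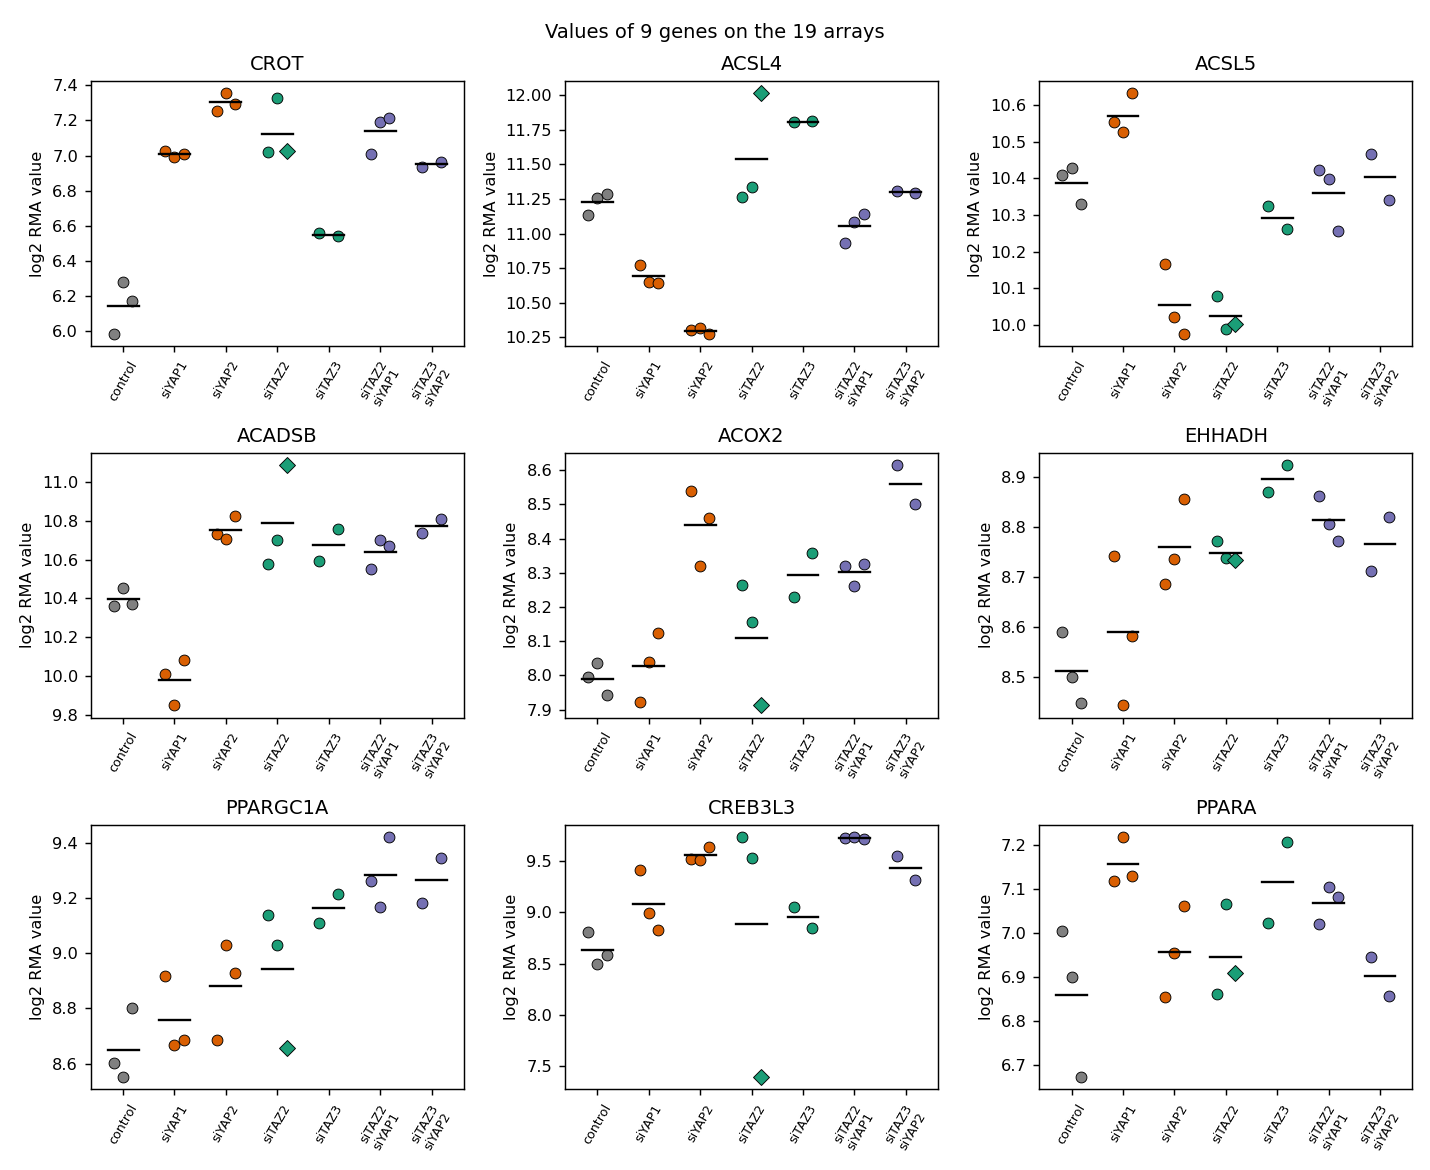
Log2 RMA values of 9 genes on the 19 arrays by siRNA group; points are arrays, horizontal lines are group means and the diamond is siTAZ2 replicate 3. For CREB3L3 the diamond lies at 7.39, below every other array, and for ACSL4 at 12.02, above every other array.

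The carnitine shuttle brings long-chain acyl groups into the mitochondrial matrix, and CPT1A, its rate-limiting enzyme, did not pass against control with either target. CPT1A read 7.52, 7.495 and 7.66 in control. It read 7.25, 7.46 and 7.29 with siYAP1 and 7.46, 7.48 and 7.44 with siYAP2, all below the lowest control array. With siTAZ2 it read 7.99, 7.90 and 7.70 and with siTAZ3 7.82 and 7.71, all above the highest control array. The pairs gave 7.68, 7.93 and 7.96 and 7.71 and 7.59. Against control the log2 difference was -0.16 with YAP siRNAs (95% interval -0.33 to 0.00, adjusted p = 0.542) and 0.25 with TAZ siRNAs (0.08 to 0.43, adjusted p = 0.16; 0.0362 without siTAZ2 replicate 3). CPT2, the matrix-side transferase, differed by 0.17, 0.34 and 0.27 with YAP siRNAs, TAZ siRNAs and the pairs, and did not pass.

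SLC25A20, the carnitine-acylcarnitine carrier, read 6.54, 6.84 and 6.59 in control and 5.69, 5.74 and 6.69 with siTAZ2. The first and second siTAZ2 arrays were the lowest of the 19, and replicate 3 lay among the controls. The difference of -0.62 did not pass with all arrays (adjusted p = 0.14), and without replicate 3 it was -0.94 and passed (adjusted p = 9.01e-05). The siTAZ3 arrays read 6.90 and 6.97, above every control. CRAT, the acetyl-carnitine transferase, read 8.63, 8.48 and 8.44 with siTAZ2_siYAP1 and 8.36 and 8.68 with siTAZ3_siYAP2, all above the control values of 8.15, 8.05 and 8.16. Its difference of 0.40 with the pairs did not pass (adjusted p = 0.123; 0.0109 without siTAZ2 replicate 3).

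Of the 12 mitochondrial beta-oxidation genes, 1 rose with TAZ siRNAs and with the pairs (1.97% and 2.59% of all genes), and none passed with YAP siRNAs (1.73%). That gene was ACAA2, the mitochondrial 3-ketoacyl-CoA thiolase. ACAA2 read 9.77, 9.86 and 9.82 in control, 10.00, 9.96 and 10.05 with siTAZ2 and 10.00 and 10.08 with siTAZ3. It read 10.04, 10.01 and 10.10 with siTAZ2_siYAP1 and 10.03 and 9.95 with siTAZ3_siYAP2. All 10 arrays with a TAZ siRNA were above the controls, by little: the log2 difference was 0.21 ± 0.05 (SE) with TAZ siRNAs (adjusted p = 0.046) and 0.21 ± 0.05 (SE) with the pairs (adjusted p = 0.0405). The calls were lost in 15 and 11 of 19 fits that left out 1 array, any of the controls among them (adjusted p up to 0.237 and 0.205). With siYAP1 it read 9.85, 9.76 and 9.72 and with siYAP2 9.85, 9.92 and 10.00.

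The trifunctional protein, whose subunits HADHA and HADHB carry out the last steps of the long-chain cycle, stayed within a narrow range. HADHA ranged from 11.68 to 11.93 over the 19 arrays and differed from control by 0.06 with YAP siRNAs (95% interval -0.05 to 0.18), 0.02 with TAZ siRNAs (-0.09 to 0.14) and 0.06 with the pairs (-0.06 to 0.18). HADHB differed by 0.06, 0.12 and 0.18, the last with an adjusted p of 0.0937 (0.0488 without siTAZ2 replicate 3). The promoter sequence these genes share is the one printed for the pair.

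The acyl-CoA dehydrogenases open each mitochondrial cycle and differ in chain length. ACADVL, for very long chains, differed from control by -0.07, -0.06 and 0.00 with YAP siRNAs, TAZ siRNAs and the pairs. ACADM, for medium chains, read 10.73, 10.86 and 10.76 in control, 10.98, 10.89 and 10.89 with siYAP1 and 10.47, 10.45 and 10.45 with siYAP2. Of the YAP siRNAs only siYAP2 was below control (-0.32, adjusted p = 0.163; 0.001 without siTAZ2 replicate 3). With siTAZ2 ACADM read 10.63 and 10.68, also below every control, and 11.21 on siTAZ2 replicate 3. The siTAZ3 and pair arrays overlapped control. ACADSB, for short branched chains from isoleucine, read 10.36, 10.46 and 10.37 in control. It read 10.01, 9.85 and 10.08 with siYAP1, all below control, and 10.73, 10.71 and 10.82 with siYAP2, all above control. Neither passed alone (log2 differences -0.42, adjusted p = 0.0944, and 0.36, adjusted p = 0.0818), while without siTAZ2 replicate 3 both did (adjusted p = 0.00437 and 0.00489). With siTAZ2 ACADSB read 10.58, 10.70 and 11.09 and with siTAZ3 10.59 and 10.76. ACADS, for short chains, ranged from 5.49 to 6.17, and ACADL, for long chains, from 3.70 to 3.89, below the array median.

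The remaining enzymes of the mitochondrial cycle did not pass against control in any group. HADH, the medium and short chain hydroxyacyl-CoA dehydrogenase, differed by 0.05 with YAP siRNAs, 0.07 with TAZ siRNAs and 0.11 with the pairs. ECHS1, the short-chain enoyl-CoA hydratase, differed by -0.09, 0.07 and 0.08. The isomerases ECI1 and ECI2, needed for unsaturated chains, ranged from 7.72 to 8.33 and from 10.54 to 11.18. The electron transfer flavoprotein subunits ETFA and ETFB, which take electrons from the dehydrogenases, ranged from 10.51 to 10.93 and from 8.89 to 9.42, and their oxidoreductase ETFDH differed by 0.25, 0.11 and 0.26. None of the 3 electron transfer genes passed against control. BDH1, which interconverts the ketone bodies acetoacetate and 3-hydroxybutyrate, ranged from 4.38 to 5.19 with a mean below the array median, and did not pass.

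Among the regulators, PPARGC1A, which encodes the co-activator PGC-1alpha, rose with the pairs. It read 8.60, 8.55 and 8.80 in control, 9.26, 9.17 and 9.42 with siTAZ2_siYAP1 and 9.18 and 9.35 with siTAZ3_siYAP2, so that no pair array overlapped control. The difference was 1.54-fold (log2 0.62 ± 0.11 (SE), adjusted p = 0.0056), and it passed for each pair, at 0.63 and 0.61. The call over both pairs was kept in all 19 fits that left out 1 array; those of the single pairs were lost without control replicate 1 or 2, siTAZ2_siYAP1 replicate 3 (first pair, adjusted p up to 0.0678) or either siTAZ3_siYAP2 array (second pair, up to 0.266). With all arrays, CROT and PPARGC1A were the 2 genes of the 35 that passed with both pairs in the same direction. Of all genes 0.755% did so. With siTAZ2 PPARGC1A read 9.14, 9.03 and 8.66, the last from the array that stands apart, and with siTAZ3 9.11 and 9.21. The mean TAZ difference of 0.40 did not pass (adjusted p = 0.0945; 0.0091 without siTAZ2 replicate 3). With siYAP1 it read 8.92, 8.67 and 8.69 and with siYAP2 8.69, 9.03 and 8.93, overlapping control.

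PPARA, the receptor itself, did not pass in any of the 16 comparisons. It read 7.005, 6.90 and 6.67 in control, 7.12, 7.22 and 7.13 with siYAP1 and 6.86, 6.95 and 7.06 with siYAP2. With siTAZ2 it read 6.86, 7.06 and 6.91, with siTAZ3 7.02 and 7.21, with siTAZ2_siYAP1 7.02, 7.10 and 7.08 and with siTAZ3_siYAP2 6.95 and 6.86. The siYAP1, siTAZ3 and siTAZ2_siYAP1 arrays lay above all controls and the others overlapped them. The difference was 0.20 with YAP siRNAs (95% interval 0.04 to 0.35), 0.17 with TAZ siRNAs (0.01 to 0.34) and 0.13 with the pairs (-0.04 to 0.29). The hormone gene FGF21 and the kinase gene PDK4, induced by PPARA on fasting, ranged from 4.02 to 4.49 and from 3.74 to 4.04, below the array median of 4.83, and neither passed.

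CREB3L3, a liver transcription factor of the endoplasmic reticulum that acts with PPARA on fasting in mice, had some of the widest differences and none that passed with all arrays. It read 8.81, 8.50 and 8.58 in control, 9.41, 8.99 and 8.83 with siYAP1 and 9.52, 9.51 and 9.64 with siYAP2. With siTAZ2 it read 9.73, 9.53 and 7.39, with siTAZ3 9.05 and 8.85, with siTAZ2_siYAP1 9.72, 9.74 and 9.71 and with siTAZ3_siYAP2 9.55 and 9.31. Apart from siTAZ2 replicate 3, at 7.39, every array with a YAP or TAZ siRNA lay above all 3 controls. With all arrays the difference was 0.69 ± 0.35 (SE) with YAP siRNAs (adjusted p = 0.59), 0.29 ± 0.36 (SE) with TAZ siRNAs (adjusted p = 0.886) and 0.94 ± 0.36 (SE) with the pairs (adjusted p = 0.271). Without that array the differences were 0.69, 0.66 and 0.94, and all 3 passed (adjusted p = 0.00134, 0.00384 and 9.15e-05). The YAP and pair differences do not involve the array, which enters there only through the shared estimate of the spread.

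By single siRNA and pair, few of the 35 genes passed against control. The counts were 1 with siYAP1 (0.88% of all genes passed), 4 with siYAP2 (3.72%), 3 with siTAZ2 (2.37%) and 1 with siTAZ3 (1.16%). They were 5 with siTAZ2_siYAP1 (2.44%) and 3 with siTAZ3_siYAP2 (2.66%). None of the 3 siTAZ2 calls remained when only the control and siTAZ2 arrays were fitted, where 0.00782% of all genes passed. With all arrays, no gene of the 35 passed with both TAZ siRNAs in the same direction, where 0.453% of all genes did. CROT also passed with siTAZ3 once siTAZ2 replicate 3 was left out, and the count for both siRNAs was not made again. Without siTAZ2 replicate 3 the counts were 3 with siYAP1 (2.47% of all genes), 7 with siYAP2 (7.08%), 8 with siTAZ2 (5.1%) and 5 with siTAZ3 (3.55%). For the pairs they were then 10 with siTAZ2_siYAP1 (6.05%) and 7 with siTAZ3_siYAP2 (5.7%).

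Setting the pairs against the TAZ siRNAs asks what a YAP siRNA added when TAZ was already targeted. These arrays are of 1 deposit, but the total dose was 40 nM with the pairs and 20 nM with the TAZ siRNAs, and dose and YAP siRNA cannot be told apart. ACSL4 fell (log2 difference -0.50 ± 0.11 (SE), adjusted p = 0.0486) and was the only gene of the 35 that passed, against 0.747% of all genes. Over both pairs together ACSL4 read 11.26 to 12.02 with TAZ siRNAs and 10.93 to 11.31 with the pairs, which overlapped. Within each pair the arrays did not overlap. ACSL4 read 11.26 to 12.02 with siTAZ2 and 10.93 to 11.14 with siTAZ2_siYAP1. With siTAZ3 both arrays read 11.81, and with siTAZ3_siYAP2 they read 11.31 and 11.30. ACSL4 was picked out by this same test, so the lack of overlap is not separate support. Leaving out siTAZ2 replicate 3 brought the difference to -0.38 (adjusted p = 0.00104) and brought the count to 2 genes, with ACSL3 rising by 0.20 (adjusted p = 0.0323), against 1.29% of all genes. It did not hold in 16 of 19 fits without 1 array (adjusted p up to 0.214), and when only the arrays compared were fitted. In that last fit 0.0899% of all genes passed. CROT differed by 0.21 (95% interval 0.06 to 0.35, adjusted p = 0.266) and CREB3L3 by 0.66 (adjusted p = 0.517). The CREB3L3 difference includes siTAZ2 replicate 3 directly. CREB3L3 read 9.73, 9.53 and, on that array, 7.39 with siTAZ2, and 9.72, 9.74 and 9.71 with siTAZ2_siYAP1.

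Within each pair the addition gave fewer calls. On adding siYAP1 to siTAZ2 none of the 35 genes passed in the limma fit, 7 had an unadjusted p under 0.05 and 0.219% of all genes passed (0.387% and again none of the 35 without siTAZ2 replicate 3). On adding siYAP2 to siTAZ3 none passed, 4 had an unadjusted p under 0.05 and 0.563% of all genes passed. Without siTAZ2 replicate 3, ACSL4 passed there (-0.51, adjusted p = 0.00166), 1 of 35 against 1.51% of all genes.

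**Figure D3:**
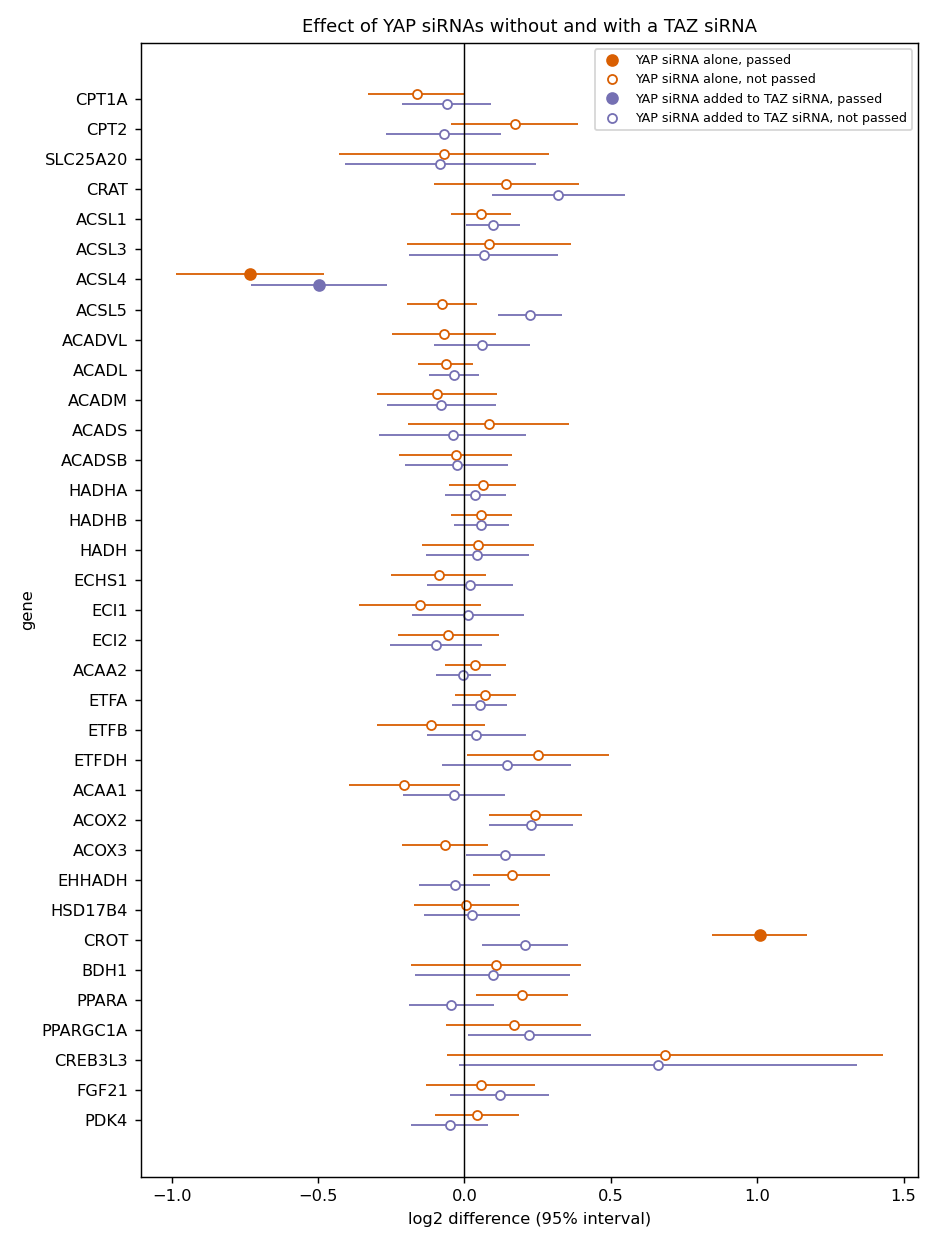
Log2 difference (horizontal axis, bars are unadjusted 95% intervals) of the 35 genes for YAP siRNAs against control and for YAP siRNAs added to TAZ siRNAs; filled points passed. CROT lies at 1.01 and 0.21, and ACSL4 at -0.73 and -0.50.

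The interaction asks whether YAP siRNAs had the same effect with a TAZ siRNA present as without one. CROT was the only gene of the 35 that passed, against 0.125% of all genes (0.391% without siTAZ2 replicate 3, with CROT again the only one). Its change was 1.01 with YAP siRNAs alone and 0.21 on top of TAZ siRNAs, a difference of -0.80 ± 0.10 (SE) (adjusted p = 0.00229). The first change is measured in the earlier deposit and the second in the later one, each against arrays of its own deposit, so deposit and the presence of a TAZ siRNA cannot be told apart here. The 0.21 is a mean over pairs that were not alike. CROT had a mean of 7.12 with siTAZ2 and 7.14 with siTAZ2_siYAP1. With siTAZ3 the mean was 6.55 and with siTAZ3_siYAP2 6.95. Neither addition passed for CROT. YAP1 itself also had an interaction: it changed by -2.72 ± 0.07 (SE) with YAP siRNAs alone and by -1.88 ± 0.07 (SE) on top of TAZ siRNAs, a difference of 0.84 ± 0.10 (SE) (adjusted p = 0.00105), and the part of this smaller YAP1 fall in the CROT result was not tested. The CROT call was kept in all 19 fits that left out 1 array. For ACSL4 the interaction was 0.24 (95% interval -0.11 to 0.58, adjusted p = 0.847) and for CREB3L3 -0.03 (-1.03 to 0.98, adjusted p = 0.994). The array siTAZ2 replicate 3 enters both values directly. It read 7.39 for CREB3L3, beside 9.73 and 9.53 on the other siTAZ2 arrays, and 12.02 for ACSL4, beside 11.26 and 11.34. The CREB3L3 value therefore does not show an equal effect with and without a TAZ siRNA.

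TAZ and YAP siRNAs were also set against each other without the control, across the deposits. Of the 35 genes 5 were higher with TAZ siRNAs and CROT was lower, 6 in all against 5.59% of all genes. ACSL4 was 2.26-fold higher with TAZ siRNAs (log2 difference 1.18 ± 0.10 (SE), adjusted p = 5.25e-06), and no arrays of the groups overlapped. CPT1A was 1.33-fold higher (0.42 ± 0.07 (SE), adjusted p = 0.00121) and ACAA1 1.26-fold higher (0.34 ± 0.08 (SE), adjusted p = 0.0153), again without overlap. ACADSB (0.37, adjusted p = 0.00989) and ACAA2 (0.17, adjusted p = 0.0221) were higher with overlap. CROT was lower (-0.32, adjusted p = 0.00764), with overlap. The calls of ACADSB, ACAA1 and ACAA2 were lost without siTAZ3 replicate 2 (adjusted p up to 0.0788, 0.112 and 0.14), and that of ACAA2 also without siYAP1 replicate 3 or siYAP2 replicate 1. Without siTAZ2 replicate 3 the count was 10 of 35, against 9.27% of all genes.

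The siRNAs of 1 target did not always agree. Between siYAP2 and siYAP1, whose arrays are of 1 deposit and whose YAP1 values were alike, 4 of the 35 genes differed, against 4.83% of all genes. ACADSB was higher with siYAP2 by 0.77 ± 0.10 (SE) (adjusted p = 2.28e-04) and ACOX2 by 0.41 ± 0.09 (SE) (adjusted p = 0.00895). ACSL5 was lower with siYAP2 (-0.52 ± 0.07 (SE), adjusted p = 1.18e-04), and so was ACADM (-0.46 ± 0.11 (SE), adjusted p = 0.0217). The ACADM call was lost when any of the 6 YAP siRNA arrays was left out (adjusted p up to 0.0811) and the ACOX2 call without siYAP2 replicate 1 (0.0538). In all 4 genes the 3 arrays of 1 siRNA lay entirely on one side of the 3 arrays of the other. The genes were chosen by this same test, so the lack of overlap is not separate support. The genes whose mean YAP effect was near 0 include ACADSB (-0.03) and ACSL5 (-0.08), in which the single siRNAs had differences of opposite sign. Without siTAZ2 replicate 3 the count was 8, against 8.49% of all genes.

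Between siTAZ3 and siTAZ2 3 genes were lower with siTAZ3, against 0.813% of all genes. These were CROT (-0.57 ± 0.10 (SE), adjusted p = 0.0108), ETFA (-0.34 ± 0.06 (SE), adjusted p = 0.0177) and ACSL1 (-0.30 ± 0.06 (SE), adjusted p = 0.0369). ETFA read 10.76, 10.86 and 10.93 with siTAZ2 and 10.51 and 10.51 with siTAZ3, without overlap, and 10.65, 10.82 and 10.71 in control. ACSL1 read 9.37, 9.36 and 9.29 with siTAZ2 and 8.96 and 9.13 with siTAZ3. No call remained when only the siTAZ2 and siTAZ3 arrays were fitted, where 0% of all genes passed. The CROT and ETFA calls were lost without either siTAZ3 array, the ETFA call also without siTAZ2 replicate 2, and the ACSL1 call in 12 of 19 fits that left out 1 array (adjusted p up to 0.137, 0.213 and 0.498). Without siTAZ2 replicate 3 the count was 7, against 4.32% of all genes, and SLC25A20 then had the widest difference of the 7, at 1.22 (adjusted p = 1.71e-05).

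**Figure D4:**
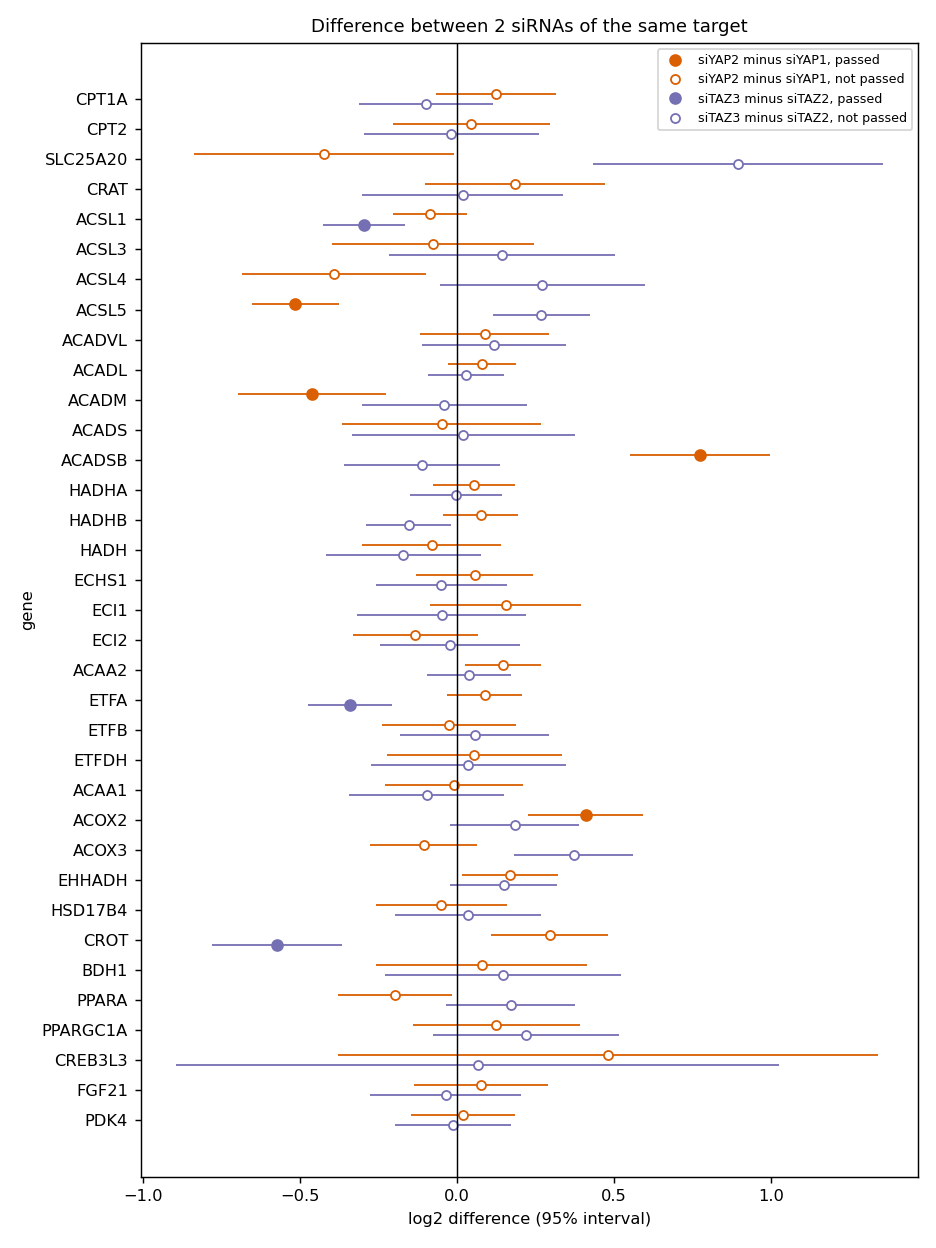
Log2 difference between the 2 siRNAs of each target for the 35 genes (horizontal axis, bars are unadjusted 95% intervals): siYAP2 minus siYAP1 and siTAZ3 minus siTAZ2; filled points passed. ACADSB lies at 0.77 for the YAP siRNAs, and CREB3L3 and SLC25A20 have wide intervals for the TAZ siRNAs.

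Further genes of the pathway were read from 7 other lists that hold 85 measured genes. Of 13 further mitochondrial genes none passed with YAP siRNAs; SLC22A5, the plasma membrane carnitine transporter, rose with TAZ siRNAs (log2 difference 0.43 ± 0.10 (SE), adjusted p = 0.0327; 0.44 with siTAZ2, passed, and 0.42 with siTAZ3, not passed) and DECR1, the reductase for unsaturated chains, with the pairs (0.32 ± 0.07, adjusted p = 0.0211; 0.38 with siTAZ2_siYAP1, passed, and 0.27 with siTAZ3_siYAP2, not passed). Of 18 further peroxisomal genes 2 fell with YAP siRNAs: CAT, catalase (-0.84 ± 0.05, adjusted p = 6.73e-07), and PEX19, an import receptor for peroxisomal membrane proteins (-0.57 ± 0.10, adjusted p = 0.00599). Both passed with siYAP1, at -1.75 ± 0.06 for CAT and -1.27 ± 0.12 for PEX19, and neither passed with siYAP2 (0.07 and 0.13). ABCD3, a peroxisomal fatty acid transporter, fell with TAZ siRNAs (-0.34 ± 0.06, adjusted p = 0.00815). By siRNA it passed with siTAZ3 (-0.58) and not with siTAZ2 (-0.11), and the siRNAs differed (-0.47, adjusted p = 0.0085). CAT fell with the pairs (-0.34 ± 0.06, adjusted p = 0.00281) and in the pairs against the TAZ siRNAs (-0.52 ± 0.05, adjusted p = 8.56e-05). By pair, CAT was -0.78 with siTAZ2_siYAP1, which passed, and 0.10 with siTAZ3_siYAP2, which did not; it was -0.98 on adding siYAP1 to siTAZ2, which passed, and -0.05 on adding siYAP2 to siTAZ3, which did not.

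Of 12 uptake and activation genes FABP1, the liver fatty acid binding protein, rose with TAZ siRNAs (0.45 ± 0.08, adjusted p = 0.00537) and with the pairs (0.49 ± 0.08, adjusted p = 0.00185), and none passed with YAP siRNAs. FABP1 passed with each pair and with siTAZ2 (0.51), not with siTAZ3 (0.38). Of 14 PPARA target genes outside beta-oxidation, CIDEC, a lipid droplet protein, rose with YAP siRNAs (0.38 ± 0.08, adjusted p = 0.0194), with the pairs (0.67 ± 0.08, adjusted p = 2.52e-04) and in the pairs against the TAZ siRNAs (0.53 ± 0.07, adjusted p = 0.00226). CIDEC passed with each pair and with siYAP2 (0.36), not with siYAP1 (0.40); it passed on adding siYAP2 to siTAZ3 (0.65) and not on adding siYAP1 to siTAZ2 (0.41). In that list KLB, the co-receptor for FGF21, rose with TAZ siRNAs (0.45 ± 0.11, adjusted p = 0.0473) and FADS1, a desaturase, with the pairs (0.45 ± 0.10, adjusted p = 0.03). KLB passed with siTAZ2 (0.57) and not with siTAZ3 (0.33), and FADS1 with siTAZ2_siYAP1 (0.47) and not with siTAZ3_siYAP2 (0.43). Other genes of that list fell: PLIN2 with siYAP2 and VNN1 with siTAZ2_siYAP1. Neither passed for the mean of both siRNAs or pairs. For SLC22A5, FABP1 and KLB the difference between siTAZ3 and siTAZ2 did not pass, for CIDEC that between siYAP2 and siYAP1 did not, and differences between the pairs were not tested. None of 15 PPARA partners and coregulators, 4 further ketone body genes or 9 genes of malonyl-CoA and AMPK control passed with YAP siRNAs, TAZ siRNAs or the pairs, or when the pairs were set against the TAZ siRNAs. The share of all genes that passed was 1.73%, 1.97%, 2.59% and 0.747% in these 4 comparisons. Of the 8 hepatocyte markers FGB rose with TAZ siRNAs (0.41 ± 0.07) and with the pairs (0.34 ± 0.07), none of the 10 markers of other cell types passed in these comparisons, and the part of either list in the results above was not tested.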

How the data were processed

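Biotinylated cRNA from HepG2 total RNA was measured on Affymetrix arrays (per the labels' protocols). The deposited values are log2 values from the authors' RMA, as the submitters' processing notes name it, with no version given there. RMA equalises the distribution over arrays, so a shift of all genes would be removed. The table holds 25582 probe sets, of which the platform annotation names 24244 and 1338 are unnamed. ACSL3 was matched by its row identifier and the other 34 genes by symbol. Symbols with several probe sets kept the one with the higher mean, leaving 25579 genes.

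The 7 groups came from sample titles. A limma 3.58.1 model (R 4.3.3; lmFit, contrasts.fit, eBayes) with 1 mean per group took in all 19 arrays and gave 16 comparisons, with no filter on dim genes. Benjamini-Hochberg adjustment ran over all genes within a comparison, and 0.05 was the threshold. Each target's effect is the mean over its 2 siRNAs, and that of the pairs the mean over both pairs. SE is limma's moderated standard error, intervals are 95% and unadjusted, and SD is over arrays. Arrays have no read depth, and their number limits the precision. The fit was tested on simulated data.

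All 35 genes are named. Values by array are given for CPT1A, PPARA, PPARGC1A, CREB3L3, FGF21 and PDK4 (the last 2 as ranges) and for genes that passed against control or on adding a YAP siRNA. Values by array of other genes and the HADHA and HADHB promoter were added after seeing the values. From the other lists, genes that passed for the mean of both siRNAs or pairs are named, up to 4 a list. Levels of different genes were not compared. The members and lists were chosen with earlier results of these data known. Promoter sequences are RefSeq's.

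Alternatives were an intensity trend, dropping the 30% of genes with the lowest means, averaging probe sets of a symbol, centring, a second quantile normalization, fitting only the groups compared, array weights, the replicate number as a block, and leaving out each array in turn.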

Additional observations from a re-analysis of the deposited data

Results flagged for a closer look

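Between siYAP2 and siYAP1, siRNAs against the same mRNA with like YAP1 values, the test of the difference passed for 4 genes: ACSL5 (-0.52 on the log2 scale), ACADM (-0.46), ACADSB (0.77) and ACOX2 (0.41). Between siTAZ3 and siTAZ2 it passed for ACSL1 (-0.30), ETFA (-0.34) and CROT (-0.57). The effect of YAP siRNAs on CROT differed with and without a TAZ siRNA (-0.80). The check for a single value far from its group needs at least 4 arrays and was not run on these groups of 2 or 3.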

How the results depend on the processing

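Counts of the 35 genes that passed were recomputed under each alternative. Centring, the second quantile normalization and the mean of probe sets left every count as it was. RMA had already equalised the arrays and few symbols had several probe sets, so these settings could hardly change a count. For the other settings only the larger moves are listed. Smaller moves left out include 7 (4.48% of all genes) for combined knockdown with only the groups compared. With an intensity trend they include 2 (1.57%) for TAZ. With array weights the counts (share of all genes) were 4 (5.09%) for YAP, 11 (6.93%) for TAZ, 9 (6.17%) for combined knockdown, 3 (2.17%) for siYAP1, 8 (9.28%) for siYAP2, 14 (9.31%) for siTAZ2, 7 (4.12%) for siTAZ3, 12 (7.6%) for siTAZ2_siYAP1, 2 (1.47%) for a YAP siRNA added, 2 (1.4%) for siYAP1 added to siTAZ2, 1 (0.891%) for siYAP2 added to siTAZ3, 7 (8.37%) for the YAP siRNAs compared, 8 (6.07%) for the TAZ siRNAs compared and 12 (11.5%) for TAZ against YAP. With only the groups compared they were 0 (0.242%) for TAZ, 2 (0.676%) for siYAP1, 7 (7.3%) for siYAP2, 0 (0.00782%) for siTAZ2, 8 (5.05%) for siTAZ2_siYAP1, 0 (0.0899%) for a YAP siRNA added, 0 (0%) for the TAZ siRNAs compared and 3 (3.21%) for TAZ against YAP. With an intensity trend they were 3 (2.34%) for combined knockdown, 0 (0.891%) for siTAZ3 and 3 (2.09%) for siTAZ2_siYAP1, and without the dimmest 30% of genes 3 (3.45%) for siTAZ2_siYAP1. With the replicate number as a block they were 1 (0.442%) for TAZ, 1 (1.15%) for combined knockdown, 2 (0.821%) for siYAP1, 1 (0.665%) for siTAZ2, 0 (0.465%) for siTAZ3, 1 (1.51%) for siTAZ2_siYAP1 and 3 (2.03%) for TAZ against YAP. The deviations of same-numbered arrays of a deposit from their group means had correlations from -0.281 to 0.235 over 22 pairs, with 4 over 0.1. Deviations cancel within each small group, so these correlations are not independent. They cannot decide whether the numbers pair the arrays. The cause of these changes was not tested, except that fitting only the groups compared leaves fewer arrays.

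Leaving out 1 array at a time, the counts ranged from 2 to 4 for YAP, 1 to 10 for TAZ, 3 to 9 for combined, 1 to 3 for siYAP1, 4 to 7 for siYAP2, 2 to 8 for siTAZ2, 0 to 5 for siTAZ3, 2 to 10 for siTAZ2_siYAP1, 2 to 7 for siTAZ3_siYAP2, 0 to 2 for a YAP siRNA added, 0 to 1 for siYAP1 added to siTAZ2, 0 to 1 for siYAP2 added to siTAZ3, 2 to 8 between the YAP siRNAs, 0 to 7 between the TAZ siRNAs and 3 to 10 for TAZ against YAP, and the interaction count stayed at 1. The highest values came without siTAZ2 replicate 3, apart from siYAP1 added to siTAZ2, where they came without siYAP2 replicate 1 or siTAZ2_siYAP1 replicate 3. Low values came without control 2 or 3 or either siTAZ3 array (TAZ, 1); any control, siTAZ2_siYAP1 replicate 1 or 2 or siTAZ3_siYAP2 replicate 2 (combined, 3); any control or siTAZ3 array (siTAZ3, 0); control 1 or 2 or siTAZ2_siYAP1 replicate 3 (siTAZ2_siYAP1, 2); siYAP2 replicate 1 (between YAP siRNAs, 2); either siTAZ3 array (between TAZ siRNAs, 0); siTAZ3 replicate 2 (TAZ against YAP, 3); and 15 of the 19 arrays (a YAP siRNA added, 0). Smaller counts of 1 to 3 also came without siYAP2 replicate 2, siTAZ2 replicates 1 and 2 and siTAZ2_siYAP1 replicate 2. No called gene changed sign. Uncalled values did: CREB3L3 between the TAZ siRNAs was -0.31 with the block, -0.54 with array weights and -0.68 (without siTAZ2 replicate 3, where it passed) to 0.49 without 1 array. Without 1 array CREB3L3 with siTAZ2 ranged from -0.17 to 1.00, and ACSL3 from -0.30 to 0.12 with siTAZ2, -0.0054 to 0.20 for a YAP siRNA added, -0.00098 to 0.42 between the TAZ siRNAs and -0.17 to 0.039 for TAZ against YAP. Of 2484 checks of 92 gene results 2187 kept direction and side of the threshold, 165 lost a call, 120 gained one and 12 changed sign. These checks include the settings that could hardly change a count.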

Other observations

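The following genes of the further lists passed in comparisons of single siRNAs and were chosen after their values were seen. PRKAA2, which encodes a catalytic subunit of AMPK, fell with siYAP2 (log2 difference -0.78 ± 0.15 (SE), adjusted p = 0.00472) and with siTAZ3_siYAP2 (-0.68 ± 0.16, adjusted p = 0.0369), and it was lower with siYAP2 than with siYAP1 (-0.90 ± 0.15, adjusted p = 0.0012). PLIN2, a coat protein of lipid droplets from the list of PPARA targets, fell with siYAP2 (-0.37 ± 0.07, adjusted p = 0.00757). VNN1, of the same list, fell with siTAZ2_siYAP1 (-0.67 ± 0.15, adjusted p = 0.0257). CAT was higher with siYAP2 than with siYAP1 by 1.81 ± 0.06 (adjusted p = 1.23e-10), and PEX19 by 1.40 ± 0.12 (adjusted p = 1.45e-06). CD36, a fatty acid uptake receptor, rose with siTAZ2 (0.60 ± 0.13, adjusted p = 0.0268). BDH2, a dehydrogenase of hydroxybutyrate, was lower with siTAZ3 than with siTAZ2 (-0.94 ± 0.20, adjusted p = 0.0403).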
